A study of Homo sapiens with 9 samples.

Results

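The genes described here copy the genome: 56 protein-coding genes of origin licensing, the replicative helicase, the polymerases, the clamp and its loader, fork protection and the placing of histones behind the fork. They were taken by symbol from a list drawn up by role, with earlier results of these data known, and all 56 were found among the 24204 symbols of the expression table. Each also passed the filter for testing, an FPKM of at least 1 in at least 3 libraries, which 11265 symbols passed. FPKM counts the fragments of a gene relative to its length and to the depth of the library. It thus allows for both, but a change in a few abundant genes shifts the values of all others in a library. For 4 members, CLSPN, POLA2, TICRR and TIPIN, it was the control libraries that carried the gene over the filter, because all 6 knockdown libraries lay under 1 FPKM. Such a gene had to differ, so the main counts are also given over the other 52.

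RNA was sequenced from Hep G2, a human liver cancer cell line grown in high-glucose DMEM with serum. Cells were infected with lentivirus that carried a control hairpin RNA (shCtrl) or a hairpin against TRIB3 (shTRIB3-1 or shTRIB3-2), and were selected with puromycin for 48 hours after 48 hours of infection. Each group held 3 libraries, all 9 came from infected and selected cells, and the comparisons asked how expression differed when TRIB3, a pseudokinase of the amino acid stress response, was lowered. The labels do not say whether the libraries of a group came from separate cultures, so the p-values measure the spread between these libraries only. The study's methods describe RNA of glutamine-deprived cells, whereas the labels of these libraries name only the medium above and no deprivation. Elsewhere the study speaks of TRIB3 knockdown effects on repair gene expression in cells that kept their glutamine, without naming the libraries.

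Before a cell enters S phase, the origin recognition complex (ORC1 to ORC6) marks origins, and CDC6 and CDT1 load a double ring of the MCM2 to MCM7 helicase on them. The kinase of CDC7 and its activator DBF4 then allows CDC45 and the GINS proteins to join the ring, which becomes the moving helicase (CMG, for CDC45, MCM and GINS) that polymerases alpha, delta and epsilon follow. Many of these genes are transcribed late in G1 by E2F factors and are low in resting cells. In bulk RNA, fewer cells of a cycle stage and less RNA per cell cannot be told apart, and every level below is subject to that.

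The hairpins target different exons of TRIB3, and their target sequences are shown because each comparison rests on them. Both lie within the coding sequence on the plus strand of chromosome 20 (GRCh38), shTRIB3-1 in exon 2 at chr20:388072-388092 and shTRIB3-2 in exon 3 at chr20:391473-391493. Each is 21 bases long and is written 5′ to 3′ as the strand of the gene.
shTRIB3-1: tggatgacaacttagataccg
shTRIB3-2: gccgtgctcttccgccagatg

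TRIB3 was read at 67.9, 65.8 and 66.6 FPKM in the shCtrl libraries, 34.1, 32.7 and 34.0 with shTRIB3-1 and 20.6, 20.7 and 20.4 with shTRIB3-2. The 3 groups did not overlap, and shTRIB3-2 left the least TRIB3 RNA. In limma on log2(FPKM + 0.1), the scale of every fold change below, the change was −0.99 (SE 0.0301, adjusted p = 5.30e-11) with shTRIB3-1 and −1.70 (SE 0.0301, adjusted p = 5.39e-13) with shTRIB3-2. The 9 libraries held 34206641 to 36310938 fragments, replicates correlated at 0.996 to 0.997 across genes, and no library stood apart from its group. Of the 7 hepatocyte markers examined all passed the filter, and the endothelial and fibroblast markers in the table were below it.

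Promoter windows are shown for members picked by the values given below. In each of 6 roles the member with the largest mean fall among those with a window was taken. MCM5, which led the ring, has none, so MCM2 is shown. Added to these are 2 members that did not pass with shTRIB3-2, ORC4 and POLE4. The windows run from 200 bases before to 30 bases after the RefSeq start site (GRCh38.p14), are written 5′ to 3′ along the strand of the gene, and have exact E2F words in capitals. The words searched on both strands were TTTCGCGC, TTTGGCGC, TTTCCCGC and TTTGCGCC. The windows are those of ORC6 (chr16:46689459-46689688, plus), CDT1 (chr16:88803589-88803818, plus), MCM2 (chr3:127598211-127598440, plus), CDC45 (chr22:19479266-19479495, plus), CLSPN (chr1:35769949-35770178, minus), CHAF1A (chr19:4402440-4402669, plus), ORC4 (chr2:148021522-148021751, minus) and POLE4 (chr2:74958443-74958672, plus).
ORC6: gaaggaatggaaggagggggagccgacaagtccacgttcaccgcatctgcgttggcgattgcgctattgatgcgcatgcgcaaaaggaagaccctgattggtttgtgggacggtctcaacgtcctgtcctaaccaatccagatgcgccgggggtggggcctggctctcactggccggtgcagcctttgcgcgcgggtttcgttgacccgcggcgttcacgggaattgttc
CDT1: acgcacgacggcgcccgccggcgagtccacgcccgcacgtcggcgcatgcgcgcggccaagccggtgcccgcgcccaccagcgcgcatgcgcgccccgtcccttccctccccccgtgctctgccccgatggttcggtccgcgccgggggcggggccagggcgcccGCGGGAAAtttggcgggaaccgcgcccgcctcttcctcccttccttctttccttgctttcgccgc
MCM2: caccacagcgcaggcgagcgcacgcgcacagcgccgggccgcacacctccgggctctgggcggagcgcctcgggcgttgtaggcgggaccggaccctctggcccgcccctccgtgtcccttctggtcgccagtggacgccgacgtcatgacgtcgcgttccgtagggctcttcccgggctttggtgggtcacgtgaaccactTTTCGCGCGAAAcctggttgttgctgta
CDC45: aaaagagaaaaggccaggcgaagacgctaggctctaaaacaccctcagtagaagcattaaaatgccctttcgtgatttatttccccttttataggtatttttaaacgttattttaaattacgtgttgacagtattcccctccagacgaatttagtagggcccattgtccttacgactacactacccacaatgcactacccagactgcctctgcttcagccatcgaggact
CLSPN: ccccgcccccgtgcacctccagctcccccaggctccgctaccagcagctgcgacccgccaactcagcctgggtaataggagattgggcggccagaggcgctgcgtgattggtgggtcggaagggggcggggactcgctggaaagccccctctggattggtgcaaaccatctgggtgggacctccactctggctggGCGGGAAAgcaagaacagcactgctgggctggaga
CHAF1A: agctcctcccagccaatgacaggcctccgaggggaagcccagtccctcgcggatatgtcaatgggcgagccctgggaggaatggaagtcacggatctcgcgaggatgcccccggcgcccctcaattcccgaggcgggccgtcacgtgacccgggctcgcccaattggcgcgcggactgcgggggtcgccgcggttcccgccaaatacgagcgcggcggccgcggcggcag
ORC4: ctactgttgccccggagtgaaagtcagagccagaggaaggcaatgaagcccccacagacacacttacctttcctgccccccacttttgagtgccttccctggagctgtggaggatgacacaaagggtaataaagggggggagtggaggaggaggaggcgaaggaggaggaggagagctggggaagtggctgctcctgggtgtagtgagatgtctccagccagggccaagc
POLE4: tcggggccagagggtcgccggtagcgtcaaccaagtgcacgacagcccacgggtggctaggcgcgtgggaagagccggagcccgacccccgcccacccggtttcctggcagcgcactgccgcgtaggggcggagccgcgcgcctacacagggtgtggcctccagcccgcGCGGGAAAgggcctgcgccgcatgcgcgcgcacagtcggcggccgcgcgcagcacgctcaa

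RefSeq held a window for 48 of the 56 members, and none for MCM4, MCM5, GINS4, RECQL4, RPA2, RPA3, POLD3 and DNA2. Over the full windows of 250 bases before to 50 after the start, 20 of the 48 (41.7%) held an E2F word, against 3.28% of all 35116 windows in the table and 5.67% of 9088 tested genes read at their first listed window, where the members also had 41.7%. MCM6 held 5 words, and MCM3, MCM7 and PCNA held 2 each. In MCM2 the 2 words, TTTCGCGC and its reverse complement, overlap, so that they form 1 palindrome starting 3 bases into the transcript. A CCAAT box on either strand was in 56.2% of the members' windows, 34.6% of all windows and 37.0% of those of tested genes, and 4 runs of at least 3 G with loops of 1 to 7 bases, a pattern that can fold into a G-quadruplex, were in 29.2%, 25.0% and 33.7%, so that the members lay between all windows and those of tested genes. These are matches of letters in short windows, and a window without a match says nothing of binding. For GINS1, GINS2, GINS3, POLD4 and RFC5, the nearest RefSeq start lay over 1 kb from the GENCODE start of the gene.

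The replication genes were lower as a set with either hairpin. Summed over the 56 members, the level was 924.9, 920.5 and 923.4 FPKM in the shCtrl libraries, 415.7, 425.9 and 412.6 with shTRIB3-1, and 317.4, 310.0 and 319.4 with shTRIB3-2. The sum was thus 45.3% of control with shTRIB3-1 and 34.2% with shTRIB3-2, and no library of one group reached the range of another. As a share of all fragments, the members took 0.27% in shCtrl, 0.121% with shTRIB3-1 and 0.0892% with shTRIB3-2.

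With shTRIB3-1, 52 of the 56 members fell at an adjusted p under 0.05 (limma, Benjamini-Hochberg over all tested genes), where 41.5% of all tested genes did, and 2 rose, where 32.9% did. Past a log2 change of 1 as well, the rule by which a gene is called here, 39 members were lower, where 6.1% of all tested genes were, and 0 were higher, where 5.39% were. With shTRIB3-2, 53 members fell (background 40.5%) and 1 rose (35.4%). Here 42 were called lower (background 6.27%) and 1 was called higher (6.06%). The median change of the members was −1.27 with shTRIB3-1 and −2.01 with shTRIB3-2, while that of all tested genes was −0.06 and −0.03. The same 39 members were called lower with both hairpins (32 with a pseudocount of 1), where 4.74% of tested genes were, and 51 fell with both, where 34.3% did. Over the 52 members that did not depend on the control libraries for the filter, 48 fell and 35 were called lower with shTRIB3-1, 49 fell and 38 were called lower with shTRIB3-2, and 35 were called lower with both. The comparisons share their control libraries, so each hairpin's values are given side by side and their likeness was not tested.

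**Figure D1:**
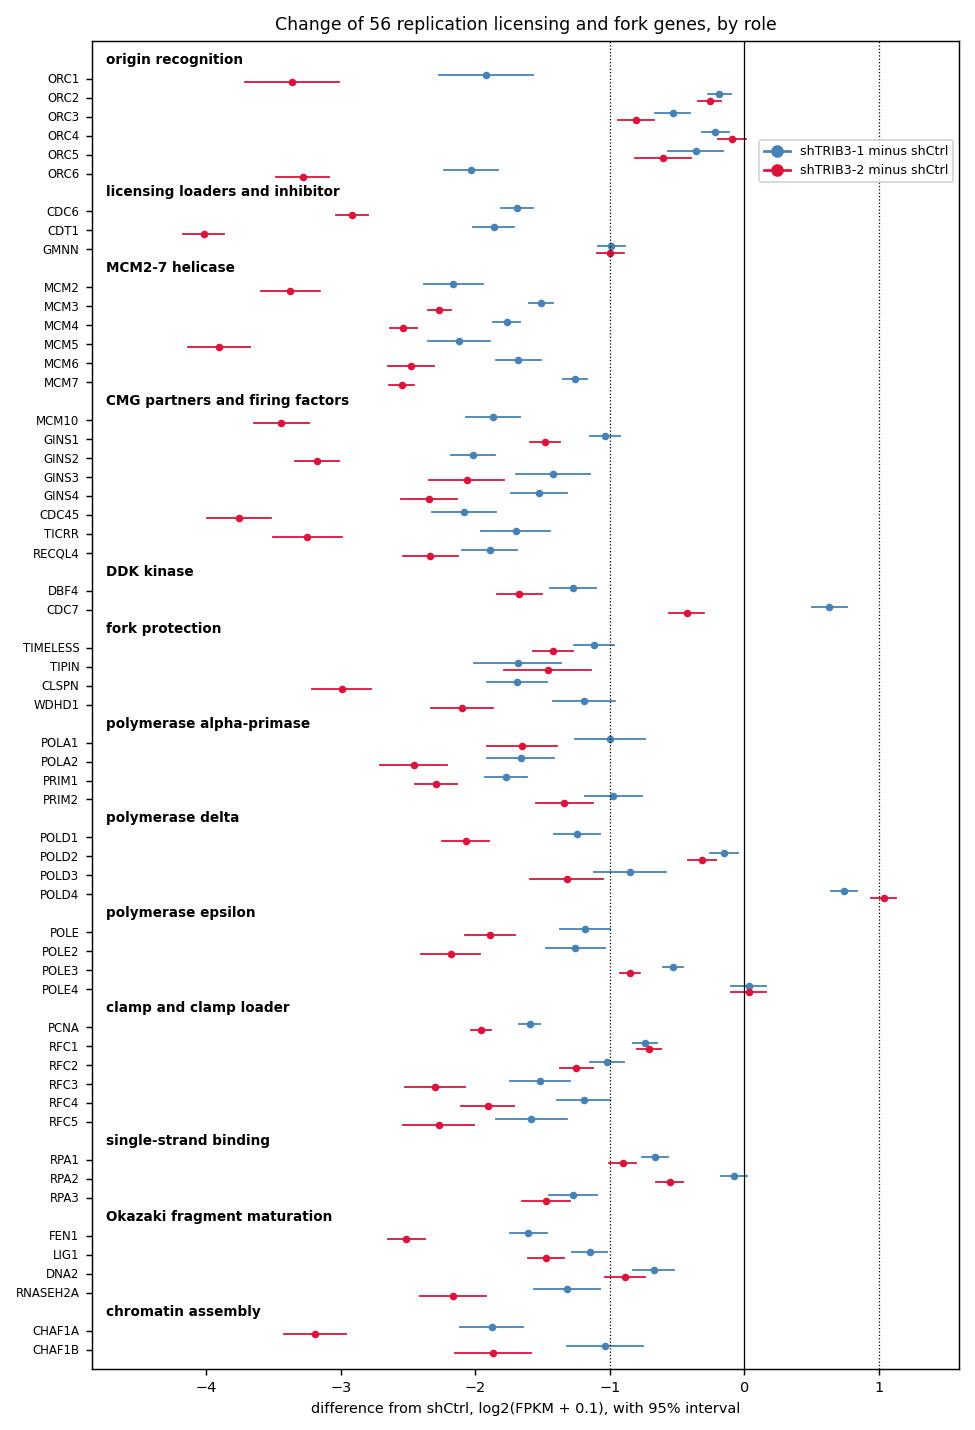
Change of each of the 56 members from shCtrl on the log2(FPKM + 0.1) scale (horizontal axis), with 95% intervals, for shTRIB3-1 (blue) and shTRIB3-2 (red), grouped by role; dotted lines mark −1 and 1. Most members lie left of −1 with both hairpins, with shTRIB3-2 further left, while POLD4 lies to the right of 0 with both, POLE4 at 0, and CDC7 on opposite sides of 0.

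Of the origin recognition complex, ORC1 and ORC6 fell far more than the other 4 subunits. ORC1, an ATP-binding subunit that is made and degraded with the cell cycle, was at 6.24, 5.67 and 6.07 FPKM in shCtrl, 1.45, 1.23 and 1.91 with shTRIB3-1, and 0.555, 0.564 and 0.375 with shTRIB3-2. The 3 groups did not overlap, and the lowest library held 43 fragments of ORC1 (chr1:52372829-52404423, minus strand). Its change was −1.92 with shTRIB3-1 (SE 0.159, adjusted p = 3.21e-07, limma) and −3.36 with shTRIB3-2 (SE 0.159, adjusted p = 1.64e-09, limma).

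ORC6, the smallest subunit (chr16:46689643-46698394, plus strand), followed the same order at 15.7, 17.3 and 15.0 FPKM in shCtrl, 3.44, 4.47 and 3.68 with shTRIB3-1 and 1.64, 1.55 and 1.47 with shTRIB3-2. Each group lay apart from the next, at 24.1% and 9.69% of the control mean. The core subunits behaved otherwise: ORC4 was at 6.41, 6.70 and 6.64 FPKM in shCtrl, 5.66, 5.59 and 5.72 with shTRIB3-1 and 6.09, 6.04 and 6.36 with shTRIB3-2. ORC4 fell with shTRIB3-1 (−0.21, adjusted p = 0.00131, limma) but did not pass with shTRIB3-2, although those 3 libraries lay below control (−0.09, 95% interval −0.20 to 0.01, adjusted p = 0.0920, limma). ORC2, ORC3 and ORC5 fell with both hairpins by less than the fold threshold, between −0.19 and −0.53 with shTRIB3-1 and between −0.26 and −0.81 with shTRIB3-2. Set per length against ORC2, ORC1 stood at a ratio of 0.396 ± 0.0131 (SD, n = 3) in shCtrl, 0.115 ± 0.0282 with shTRIB3-1 and 0.0395 ± 0.00907 with shTRIB3-2.

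The loaders CDC6 and CDT1 fell more than geminin (GMNN), the protein that binds CDT1 and blocks a second loading. CDT1 (chr16:88803789-88809258, plus strand) read 9.85, 9.50 and 9.75 FPKM in shCtrl, 2.71, 2.48 and 2.60 with shTRIB3-1, and 0.516, 0.496 and 0.503 with shTRIB3-2. Every group was tight and none overlapped, down to 46 fragments in the lowest library. The change of −1.86 with shTRIB3-1 (SE 0.0698, adjusted p = 2.76e-10) and of −4.02 with shTRIB3-2 (SE 0.0698, adjusted p = 5.39e-13, limma) left 5.20% of the control level in the latter. This was the lowest percentage among the 56 members.

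CDC6 (chr17:40287879-40304657, plus strand), the ATPase that works with ORC in loading, was at 16.4, 16.2 and 15.8 FPKM in shCtrl, 4.85, 5.20 and 4.80 with shTRIB3-1 and 2.14, 2.01 and 2.01 with shTRIB3-2. Again the 3 groups were separate, with changes of −1.69 and −2.92. GMNN (chr6:24774931-24786099, plus strand) read 16.4, 16.6 and 17.5 FPKM in shCtrl, 8.18, 8.31 and 8.81 with shTRIB3-1, and 8.10, 8.54 and 8.53 with shTRIB3-2. Both knockdown groups lay below control and overlapped each other. Their changes of −0.9881 (SE 0.0460, adjusted p = 1.73e-09, limma) and −0.9951 (SE 0.0460, adjusted p = 1.36e-09, limma) passed the test and stopped just short of the fold threshold.

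The RNA ratio of geminin to CDT1, both per length, moved in steps. It was 1.67, 1.74 and 1.79 in the shCtrl libraries, 3.02, 3.36 and 3.39 with shTRIB3-1, and 15.7, 17.2 and 17.0 with shTRIB3-2. The groups did not overlap, and the mean ratio went from 1.73 ± 0.0603 (SD, n = 3) to 16.6 ± 0.814 with shTRIB3-2. Between the hairpins GMNN itself differed by −0.01 (95% interval −0.11 to 0.09), which did not pass.

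All 6 subunits of the MCM2 to MCM7 ring were called lower with both hairpins. Their summed level was 199.0, 202.0 and 202.0 FPKM in shCtrl, 67.0, 66.4 and 65.4 with shTRIB3-1, and 32.8, 30.2 and 34.0 with shTRIB3-2, or 33.0% and 16.1% of the control mean. MCM5 (chr22:35400134-35425431, plus strand) went from 19.1, 20.1 and 20.2 FPKM in shCtrl to 4.38, 4.49 and 4.57 with shTRIB3-1 and 1.13, 1.05 and 1.55 with shTRIB3-2. The groups were far apart, and its changes of −2.12 (SE 0.106, adjusted p = 3.28e-09) and −3.91 (SE 0.106, adjusted p = 1.53e-11, limma) gave the largest mean fall of any member.

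MCM2 (chr3:127598410-127622436, plus strand) read 24.3, 25.0 and 23.5 FPKM in shCtrl, 5.56, 5.17 and 5.30 with shTRIB3-1 and 2.57, 1.81 and 2.43 with shTRIB3-2. The groups did not overlap (changes −2.16 and −3.38), and the gene shares 23.6% of its exon bases with an antisense gene, so its counts carry that uncertainty because the strand use of the counting is not given in the sources used here. MCM3, with the smallest change in the ring on the mean of both hairpins, was at 59.2, 58.8 and 59.9 FPKM in shCtrl against 20.5, 21.2 and 20.6 with shTRIB3-1 and 12.0, 11.7 and 13.0 with shTRIB3-2. MCM7 kept 41.7% of its control level with shTRIB3-1 and 17.0% with shTRIB3-2, from 57.0, 56.7 and 57.6 FPKM in shCtrl through 24.7, 23.7 and 23.1 to 10.2, 9.17 and 9.68.

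The ring holds its subunits in equal numbers, but their RNA levels were unequal and drew further apart. The highest subunit was 5.60 ± 0.313 times the lowest in shCtrl, 7.35 ± 0.482 times with shTRIB3-1 and 10.1 ± 1.47 times with shTRIB3-2 (SD, n = 3). MCM4 fell by 1.77 and 2.54 and MCM6 by 1.68 and 2.48 on the log2 scale.

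The partners that turn the ring into the moving helicase, and the factors that fire it, were all called lower with both hairpins, 8 of 8. CDC45 (chr22:19479457-19520612, plus strand), the C of CMG, read 6.10, 5.59 and 5.39 FPKM in shCtrl, 1.15, 1.36 and 1.30 with shTRIB3-1, and 0.314, 0.297 and 0.377 with shTRIB3-2. No group reached another, and the lowest library held only 25 CDC45 fragments. The changes were −2.08 (SE 0.109, adjusted p = 5.12e-09) and −3.76 (SE 0.109, adjusted p = 2.56e-11, limma).

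MCM10, which helps the helicase start to unwind, was at 8.57, 8.75 and 7.85 FPKM in shCtrl, 2.43, 2.00 and 2.26 with shTRIB3-1 and 0.652, 0.754 and 0.641 with shTRIB3-2. TICRR, the treslin that recruits CDC45, was at 2.85, 2.96 and 3.07 FPKM in shCtrl, 0.826, 0.855 and 0.843 with shTRIB3-1 and 0.233, 0.190 and 0.243 with shTRIB3-2. Both genes stepped down from each group to the next with no overlap. Among the 4 GINS subunits the falls were uneven: GINS2 kept 9.89% of its control level with shTRIB3-2 (7.36, 7.66 and 7.60 FPKM in shCtrl, 1.85, 1.82 and 1.71 with shTRIB3-1, 0.779, 0.711 and 0.748 with shTRIB3-2), and GINS1 kept 35.6% (24.2, 26.5 and 25.9, then 11.9, 13.2 and 12.2, then 9.43, 8.75 and 9.10 FPKM). GINS3, GINS4 and the helicase RECQL4 lay between these, at changes of −1.42 to −1.89 with shTRIB3-1 and −2.06 to −2.35 with shTRIB3-2. Of the GINS4 exon bases 23.4% are overlapped by antisense genes, and 10.9% of those of GINS3.

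**Figure D2:**
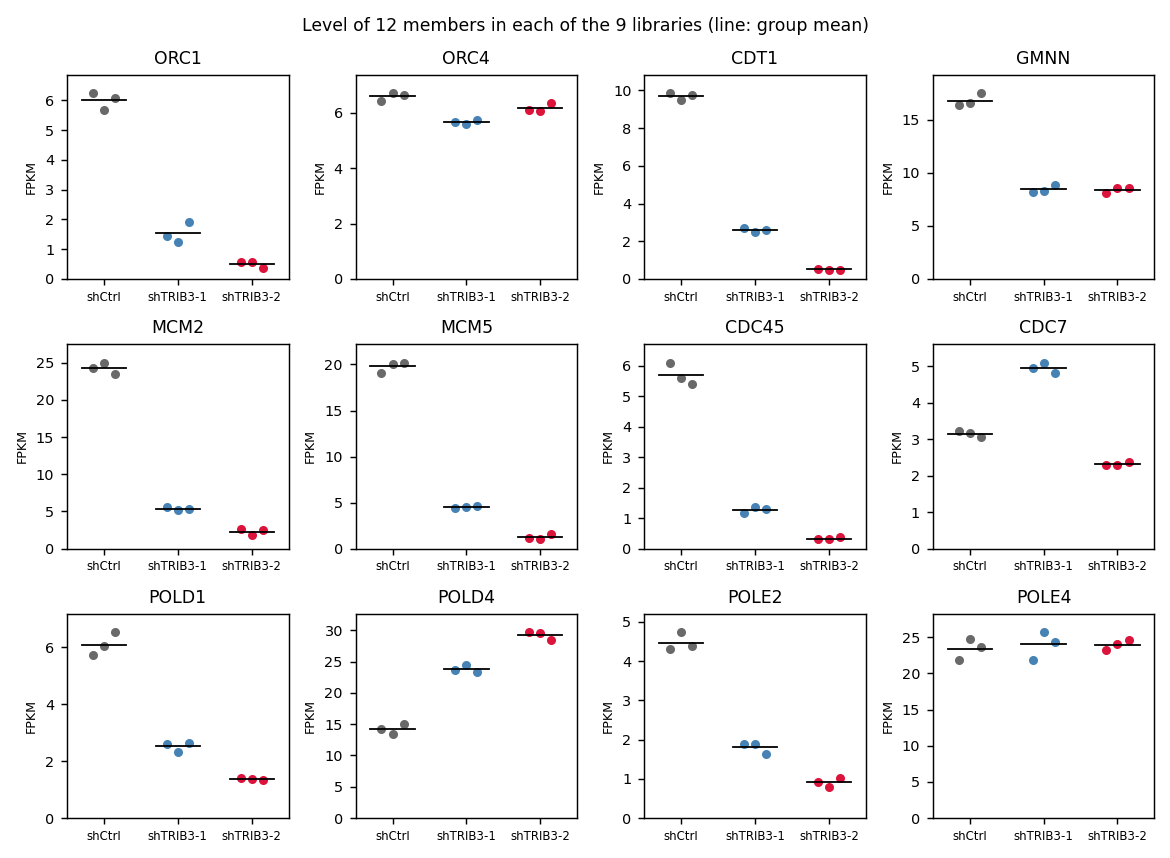
FPKM (vertical axis, from 0) of 12 members in the 9 libraries, 3 points per group (shCtrl grey, shTRIB3-1 blue, shTRIB3-2 red) with the group mean as a line. ORC1, CDT1, MCM2, MCM5, CDC45, POLD1 and POLE2 step down from group to group, GMNN falls to the same level with both hairpins, ORC4 and POLE4 stay near control, CDC7 is highest with shTRIB3-1, and POLD4 steps up.

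The subunits of the kinase that fires origins did not move alike. CDC7 (chr1:91500851-91525764, plus strand), the catalytic subunit, read 3.22, 3.18 and 3.06 FPKM in shCtrl, 4.94, 5.10 and 4.81 with shTRIB3-1, and 2.29, 2.29 and 2.37 with shTRIB3-2. The groups did not overlap, and the shTRIB3-1 libraries were the highest while the shTRIB3-2 libraries were the lowest. CDC7 rose by 0.63 with shTRIB3-1 (SE 0.0603, adjusted p = 1.15e-06) and fell by 0.43 with shTRIB3-2 (SE 0.0603, adjusted p = 3.52e-05, limma), so the hairpins moved it in opposite directions. It was the only member for which both changes passed with opposite signs. DBF4, its activating subunit, fell with both, from 7.55, 7.30 and 6.86 FPKM in shCtrl to 3.01, 3.14 and 2.67 with shTRIB3-1 and 2.37, 2.13 and 2.10 with shTRIB3-2. DBF4 RNA therefore stood above CDC7 RNA in every control library and below it in every shTRIB3-1 library.

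The 4 fork protection genes were called lower with both hairpins. Claspin (CLSPN), an adaptor of the ATR checkpoint at the fork, was at 3.52, 3.19 and 3.23 FPKM in shCtrl, 0.954, 0.962 and 0.951 with shTRIB3-1, and 0.324, 0.325 and 0.335 with shTRIB3-2. The groups were widely separated, with changes of −1.69 and −2.99. WDHD1, the adaptor that holds polymerase alpha to the helicase, read 3.84, 4.13 and 4.02 FPKM in shCtrl, 1.68, 1.69 and 1.70 with shTRIB3-1, and 0.975, 0.706 and 0.908 with shTRIB3-2. TIMELESS fell least, from 11.6, 11.8 and 11.5 FPKM to 5.24, 5.19 and 5.44 with shTRIB3-1 and 4.64, 3.79 and 4.46 with shTRIB3-2. Its partner TIPIN, at 2.03 ± 0.204 FPKM in shCtrl, went to 0.566 ± 0.0986 with shTRIB3-1 and 0.675 ± 0.0887 with shTRIB3-2 (SD, n = 3), and did not pass between the hairpins (0.22, 95% interval −0.10 to 0.55). A pseudogene shares 21.1% of the exon bases of TIPIN.

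The polymerases split by subunit. Polymerase alpha-primase, which makes the RNA and DNA primers, fell in all 4 subunits with both hairpins. POLA2 read 3.14, 2.68 and 2.80 FPKM in shCtrl, 0.907, 0.850 and 0.760 with shTRIB3-1 and 0.420, 0.441 and 0.459 with shTRIB3-2. The primase subunit PRIM1 read 12.4, 11.4 and 11.2 FPKM in shCtrl, 3.12, 3.59 and 3.35 with shTRIB3-1, and 2.47, 2.18 and 2.26 with shTRIB3-2. Both were separate in all 3 groups, with changes of −1.66 and −2.46 for POLA2 and −1.77 and −2.29 for PRIM1. Neighbouring genes on the same strand share 16.8% of the exon bases of POLA2 and 15.1% of those of PRIM1. PRIM2, the large primase subunit, changed least (3.10, 2.99 and 3.15 FPKM in shCtrl, 1.63, 1.61 and 1.34 with shTRIB3-1, 1.11, 1.12 and 1.25 with shTRIB3-2), and near-identical pseudogene copies make its level uncertain. PRIM2 and the catalytic subunit POLA1 were called lower with shTRIB3-2 only, as their changes of −0.9727 and −0.9993 with shTRIB3-1 missed the fold threshold narrowly.

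In polymerase delta, the lagging-strand enzyme, the subunits moved in different directions. POLD1 (chr19:50384204-50418018, plus strand), the catalytic subunit, read 5.72, 6.04 and 6.53 FPKM in shCtrl, 2.60, 2.31 and 2.65 with shTRIB3-1, and 1.41, 1.38 and 1.33 with shTRIB3-2. It was lower in each group than in the one before, at changes of −1.24 (SE 0.0789, adjusted p = 2.89e-08) and −2.07 (SE 0.0789, adjusted p = 2.38e-10, limma). POLD3 read 2.77, 3.08 and 2.89 FPKM in shCtrl, 1.65, 1.73 and 1.36 with shTRIB3-1 and 1.17, 1.25 and 0.918 with shTRIB3-2. POLD2 stayed close to control at 25.9, 24.4 and 26.5 FPKM in shCtrl, 24.7, 22.1 and 22.6 with shTRIB3-1 and 21.1, 20.1 and 20.5 with shTRIB3-2. The shTRIB3-1 libraries overlapped control for POLD2, and its change of −0.15 (adjusted p = 0.0140, limma) was −0.12 (adjusted p = 0.0585) without shCtrl replicate 3.

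POLD4 (chr11:67350772-67356972, minus strand), the small accessory subunit that is removed after DNA damage, was the only member to rise with both hairpins. It read 14.2, 13.4 and 15.1 FPKM in shCtrl, 23.6, 24.4 and 23.4 with shTRIB3-1, and 29.7, 29.6 and 28.5 with shTRIB3-2. The groups did not overlap, and the order was the reverse of that of POLD1. POLD4 rose by 0.74 (SE 0.0430, adjusted p = 1.28e-08) and 1.04 (SE 0.0430, adjusted p = 5.22e-10, limma), the latter just past the fold threshold (0.9963, and so no longer called, without shCtrl replicate 2). A gene on the same strand shares 21.3% of its exon bases. The ratio of POLD1 to POLD4, per length, was 0.428 ± 0.0234 in shCtrl, 0.106 ± 0.00999 with shTRIB3-1 and 0.0468 ± 0.000416 with shTRIB3-2 (SD, n = 3). The summed level of the 4 subunits, held up by POLD4 and POLD2, was 48.8 ± 2.06, 51.0 ± 1.38 and 52.3 ± 1.05 FPKM in the same order.

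Polymerase epsilon, the leading-strand enzyme, divided between its catalytic core and its histone-fold subunits. POLE, the catalytic subunit, read 6.06, 5.77 and 5.79 FPKM in shCtrl, 2.64, 2.41 and 2.55 with shTRIB3-1, and 1.67, 1.33 and 1.55 with shTRIB3-2. POLE2, which ties the enzyme to the helicase, read 4.30, 4.74 and 4.39 FPKM in shCtrl, 1.90, 1.90 and 1.64 with shTRIB3-1 and 0.911, 0.802 and 1.02 with shTRIB3-2. Both were called lower with both hairpins, and their groups did not overlap. POLE4 (chr2:74958643-74970128, plus strand) read 21.8, 24.8 and 23.7 FPKM in shCtrl, 21.9, 25.7 and 24.3 with shTRIB3-1, and 23.2, 24.0 and 24.6 with shTRIB3-2. All 3 groups overlapped, and neither change passed (0.03, 95% interval −0.10 to 0.16, for each hairpin). POLE4 was the only member that passed in none of the 3 comparisons, and its promoter, printed above, holds an E2F word. Its partner POLE3 fell by 0.53 and 0.85 on the log2 scale, short of the fold threshold.

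The sliding clamp PCNA (chr20:5114953-5126626, minus strand) had the highest level of the members in every library. It read 223.0, 217.0 and 218.0 FPKM in shCtrl, 71.1, 76.0 and 70.1 with shTRIB3-1, and 55.0, 57.2 and 57.1 with shTRIB3-2, or 33.0% and 25.7% of control. Of the clamp loader, RFC2 to RFC5 were called lower with both hairpins, while the large subunit RFC1 was not. RFC5 went from 5.96, 4.84 and 4.78 FPKM to 1.67, 1.73 and 1.57 with shTRIB3-1 and 0.867, 0.935 and 1.20 with shTRIB3-2. RFC3 went from 3.19, 3.28 and 3.21 FPKM to 1.05, 1.09 and 1.04 and then 0.598, 0.503 and 0.626. In contrast RFC1 read 23.4, 23.8 and 23.7 FPKM in shCtrl, 14.4, 13.5 and 14.5 with shTRIB3-1 and 15.0, 14.0 and 14.4 with shTRIB3-2, so both knockdown groups lay below control and overlapped each other. RFC2 lay near the fold threshold with shTRIB3-1, at −1.02, and RFC4 changed by −1.19 and −1.91.

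Replication protein A, which coats single-stranded DNA, was reduced unevenly. RPA3, its smallest subunit, read 11.5, 11.1 and 12.4 FPKM in shCtrl, 4.18, 5.43 and 4.77 with shTRIB3-1 and 4.15, 4.22 and 4.06 with shTRIB3-2, and was called lower with both. RPA1, which carries most of the DNA-binding surface, read 15.0, 15.6 and 15.5 FPKM in shCtrl, 9.51, 9.93 and 9.58 with shTRIB3-1 and 8.09, 7.82 and 8.61 with shTRIB3-2, separate in each group but under the fold threshold. RPA2 read 12.0, 10.9 and 11.2 FPKM in shCtrl, 10.9, 10.8 and 10.6 with shTRIB3-1 and 7.77, 7.53 and 7.77 with shTRIB3-2. Its shTRIB3-1 libraries reached the control range (change −0.08, 95% interval −0.18 to 0.02, adjusted p = 0.145, limma), and it fell with shTRIB3-2 only (−0.55, adjusted p = 2.51e-07, limma).

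Of the enzymes that finish Okazaki fragments, FEN1, LIG1 and RNASEH2A were called lower with both hairpins. The flap nuclease FEN1 read 24.9, 22.9 and 23.8 FPKM in shCtrl, 6.97, 7.99 and 8.43 with shTRIB3-1 and 4.07, 4.18 and 4.04 with shTRIB3-2. RNASEH2A, which removes RNA from DNA, read 17.6, 20.1 and 18.3 FPKM in shCtrl, 7.78, 7.65 and 6.89 with shTRIB3-1 and 4.95, 3.31 and 4.11 with shTRIB3-2, with 53.3% of its exon bases shared with THSD8. Neither gene overlapped between groups. The helicase-nuclease DNA2 fell less (4.75, 4.92 and 4.80 FPKM in shCtrl, 2.92, 3.08 and 2.97 with shTRIB3-1, 2.61, 2.35 and 2.74 with shTRIB3-2), and the ligase LIG1 changed by −1.15 and −1.47.

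The CAF-1 subunits, which place new histones behind the fork, fell with both hairpins. CHAF1A (chr19:4402640-4445018, plus strand) read 6.87, 6.61 and 6.68 FPKM in shCtrl, 1.93, 1.92 and 1.45 with shTRIB3-1, and 0.622, 0.678 and 0.639 with shTRIB3-2. CHAF1B read 2.69, 2.23 and 2.72 FPKM in shCtrl, 0.996, 1.32 and 1.27 with shTRIB3-1 and 0.676, 0.570 and 0.626 with shTRIB3-2. The 3 groups were separate for both, at changes of −1.88 and −3.19 for CHAF1A and −1.04 and −1.87 for CHAF1B.

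**Figure D3:**
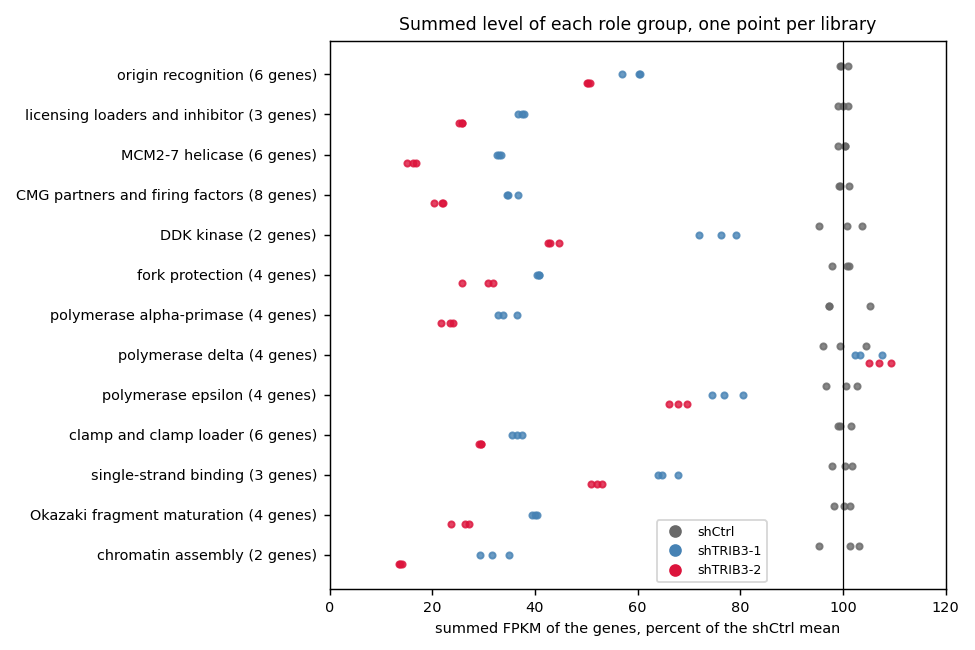
Summed FPKM of the genes of each role as a percent of the shCtrl mean (horizontal axis, from 0), 1 point per library (shCtrl grey, shTRIB3-1 blue, shTRIB3-2 red). The MCM2 to MCM7 sum reaches 33.0% and 16.1% of control and that of chromatin assembly 32.0% and 13.7%, whereas polymerase delta stays at 105.0% and 107.0% because POLD4 rose.

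Between the hairpins, the members were lower with shTRIB3-2, the hairpin that also left less TRIB3. Of the 56, 47 fell from shTRIB3-1 to shTRIB3-2 (20.7% of all tested genes did), 1 rose (25.1%), and 8 did not pass. The median difference was −0.70, against 0.03 over all tested genes, and 14 members were called lower (1.79%) and 0 higher (0.284%). Over all tested genes 202 were called lower and 32 higher in this comparison (199 and 65 after quantile normalization). With a pseudocount of 1, which compresses the change of low genes, 3 members in place of 14 were called lower. The 14 were CDT1, MCM5, CDC45, MCM10, TICRR, ORC1, CHAF1A, CLSPN, MCM7, ORC6, CDC6, MCM2, GINS2 and CDC7. All but CDC7 had also been called lower against control with both hairpins. With only 2 hairpins, TRIB3 level and hairpin sequence cannot be told apart in this comparison.

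The largest difference was that of CDT1, −2.15 (SE 0.0698, adjusted p = 9.60e-10, limma), for which shTRIB3-2 left 19.5% of the shTRIB3-1 level. The members that did not pass were GMNN, ORC2, ORC4, ORC5, TIPIN, POLE4, RFC1 and RPA3, with differences from −0.24 to 0.22. Hence within the licensing genes ORC1, ORC6, CDC6 and CDT1 differed between the hairpins by more than the fold threshold, while the core ORC subunits and geminin did not.

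**Figure D4:**
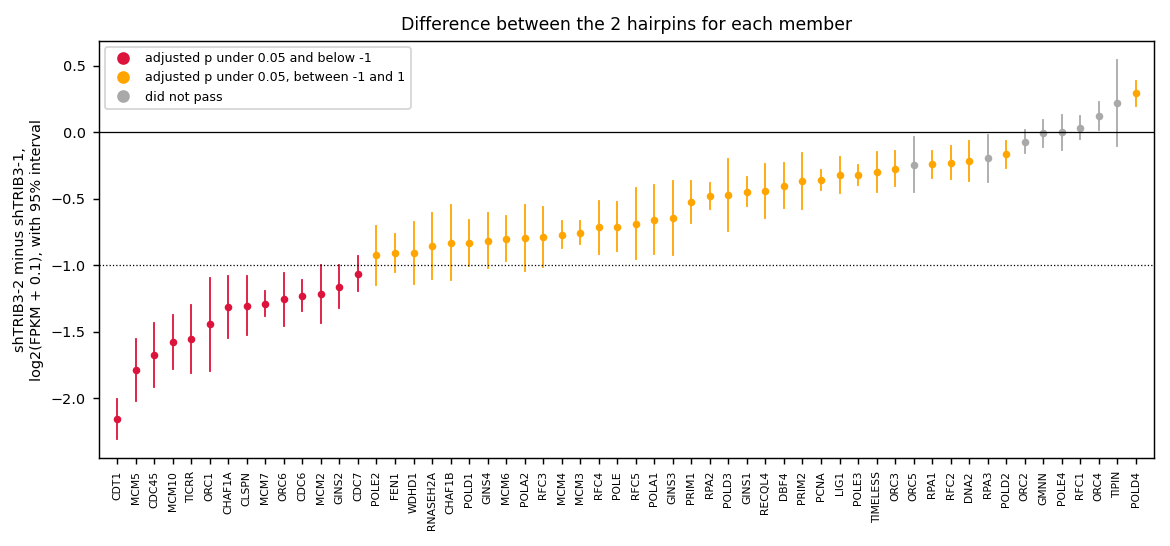
Difference of shTRIB3-2 from shTRIB3-1 for each of the 56 members (vertical axis, log2(FPKM + 0.1), with 95% intervals), ordered by size; red marks the 14 called lower, orange those with an adjusted p under 0.05 only and grey the 8 that did not pass. CDT1 lies lowest at −2.15, and POLD4 is the only member that rose, by 0.29.

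The promoter words divided the members only in part. Of the 34 members called lower with both hairpins that had a window, 17 (50.0%) held an E2F word, and of the 14 other members 3 did (21.4%): ORC3, POLA1 and POLE4. These shares read 1 window a gene. Over every window listed for a gene, a reading added after seeing the data, they were 52.9% (18 of 34) and 35.7% (5 of 14, with GMNN and CDC7 added), and 6.79% among tested genes. Of the printed promoters, those of CDT1, MCM2 and CLSPN hold a word. Those of ORC6, CDC45 and CHAF1A, whose genes fell by over 3 on the log2 scale with shTRIB3-2, hold none of the 4 words. Only exact matches to these words were marked, so other forms of an E2F site were not sought. The stretch tttggcgggaa, unmarked in the CDT1 window, is present as its reverse complement in that of CHAF1A. The CCAAT box was in 55.9% of the members called lower with both hairpins and in 57.1% of the others, and no test was made of these shares.

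Other genes of DNA replication, listed apart from the members, also fell, with medians nearer 0. Of 23 tested replication and fork factors outside the 56, 21 fell and 1 rose with shTRIB3-1 (median −0.69). Over all tested genes 41.5% fell and 32.9% rose. With shTRIB3-2, 20 fell and 2 rose (median −0.97), beside 40.5% and 35.4%. With both hairpins 9 were called lower, where 4.74% of all tested genes were. Among these 9, ATAD5, MTBP and MMS22L passed the filter through the control libraries alone, so they had to differ. TOP2A, the topoisomerase that untangles sister DNA, was at 87.8, 17.0 and 8.52 FPKM (mean of shCtrl, shTRIB3-1 and shTRIB3-2), and PCLAF, a PCNA-binding protein, at 14.9, 3.41 and 1.19. LRWD1, which binds ORC, rose with both hairpins, by 0.58 and 0.57. CHTF8 was not analysed here and RTEL1 was below the filter.

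Most genes of the lists of deoxynucleotide supply and of S phase cyclins, kinases and E2F factors fell as well. Their counts stand beside the same shares, 41.5% and 40.5% of all tested genes lower and 4.74% called lower with both hairpins. All 9 genes of deoxynucleotide supply fell with shTRIB3-1 and 8 with shTRIB3-2 (medians −0.97 and −1.29), led by thymidine kinase TK1 (39.8, 6.40 and 1.90 FPKM) and the ribonucleotide reductase subunit RRM2 (43.3, 10.4 and 4.75). Of 18 tested S phase cyclins, kinases and E2F factors, 16 fell with shTRIB3-1 and 15 with shTRIB3-2, 8 of them called lower with both, with medians of −0.96 and −1.59. E2F8 (2.99, 0.479 and 0.186 FPKM) and cyclin A2, CCNA2 (34.4, 5.66 and 3.43), changed most on the mean of both hairpins. E2F8 passed the filter through the control libraries alone, so it had to differ. All 7 histone chaperones fell with both hairpins (medians −0.64 and −0.57), of which ASF1B and NASP were called lower with both.

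The lists of translesion synthesis and of mitochondrial DNA replication had medians near 0. Of all tested genes, 41.5% fell and 32.9% rose with shTRIB3-1, and 40.5% fell and 35.4% rose with shTRIB3-2. The counts of these lists are to be read beside those shares. Of the 8 translesion polymerases and their regulators 4 fell and 1 rose with shTRIB3-1 and 4 fell and 3 rose with shTRIB3-2 (medians −0.12 and −0.11), and only RAD18, the ligase that marks PCNA, was called lower, with shTRIB3-2 (3.19, 2.15 and 1.28 FPKM). Of 8 genes of mitochondrial DNA replication 4 fell and 1 rose with shTRIB3-1 and 5 fell and 1 rose with shTRIB3-2 (medians −0.12 and −0.15), and 0 were called. The 8 mitosis markers were all called lower with both hairpins, where 4.74% of all tested genes were. They were called lower again between the hairpins, where 1.79% were, with medians of −2.0, −3.69 and −1.72 over the 3 comparisons. AURKB, a kinase of chromosome segregation, stood at 14.9, 2.91 and 0.511 FPKM and KIF20A, a cytokinesis motor, at 20.6, 3.36 and 0.897. Their summed level was 309.0 to 312.0 FPKM in shCtrl, 70.5 to 73.0 with shTRIB3-1 and 23.4 to 24.6 with shTRIB3-2, and their part in the members' result was not tested. Of the 7 hepatocyte markers, 3 fell and 2 rose with shTRIB3-1, beside 41.5% and 32.9% of all tested genes. With shTRIB3-2, 1 fell and 4 rose, beside 40.5% and 35.4%. Transthyretin (TTR), a plasma carrier protein, was called higher with both hairpins (27.9, 59.2 and 91.5 FPKM). The apolipoprotein APOA1 rose with both by 0.63 and 0.70, and AFP (0.68) and ALB (0.35) rose with shTRIB3-2. In the other direction, SERPINA1 (−0.44), APOB (−0.31) and HNF4A (−0.23) fell with shTRIB3-1, and APOB (−0.10) with shTRIB3-2. The summed level of the 7 was 8050 to 8670 FPKM in shCtrl, 8360 to 8780 with shTRIB3-1 and 10500 to 10800 with shTRIB3-2. ALB made up most of that sum (means of 5210, 5070 and 6650 FPKM), and the part of these markers in the members' result was not tested either.

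**Figure D5:**
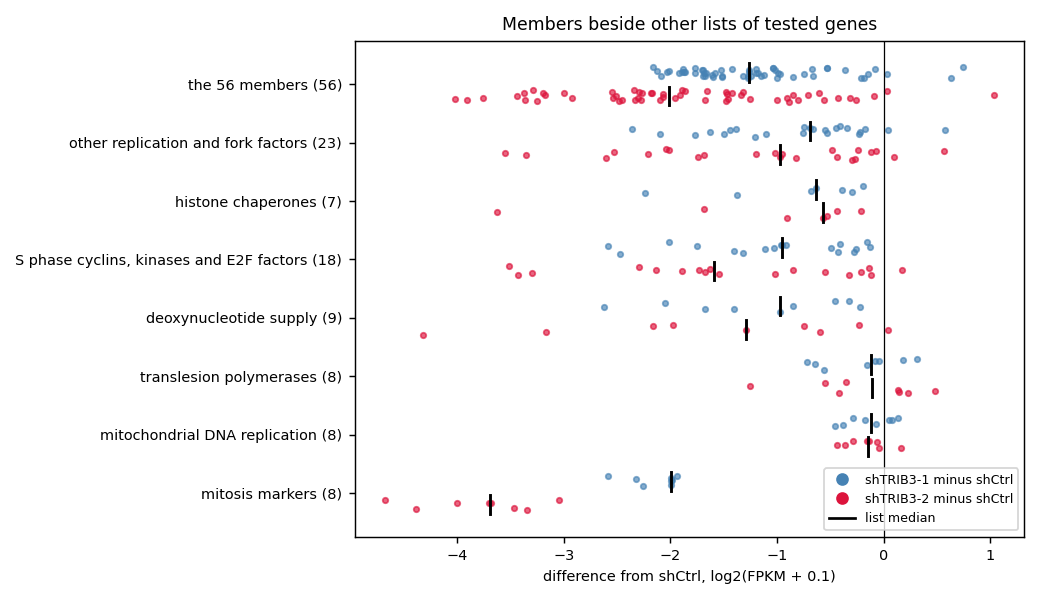
Change from shCtrl (horizontal axis, log2(FPKM + 0.1)) of the 56 members and of 7 other lists of tested genes, 1 point per gene (shTRIB3-1 blue, shTRIB3-2 red; vertical scatter has no meaning), with list medians as black lines. The members' medians lie at −1.27 and −2.01, those of the mitosis markers lower at −2.0 and −3.69, and those of the translesion and mitochondrial lists near 0.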

How the data were processed

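Per the labels, 9 RNA-seq libraries were made from Hep G2 cells with a VAHTS Universal V6 kit. The study's methods name another, strand-specific kit, alignment with STAR and testing with DESeq2, and the submitters' processing notes name HTSeq, R 3.2.0 and GRCh38. The authors deposited 1 FPKM value per gene symbol and library. FPKM is scaled by depth and gene length, so a change in a few abundant genes shifts all others. Fragment counts were recovered from the deposited FPKM steps: gene lengths came out whole (within 0.02 bases) for 99.9% of 9310 genes checked. Depth was 34206641 to 36310938 fragments, a ratio of 1.06.

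Values were tested as log2(FPKM + 0.1) with limma 3.58.1 (R 4.3.3, trended empirical Bayes, 3 group means over all 9 libraries, two-sided) on the 11265 genes with an FPKM of at least 1 in at least 3 libraries, with Benjamini-Hochberg adjustment over all of them. The pseudocount understates changes of low genes. "Fell" and "rose" mean an adjusted p under 0.05, and "called" also an absolute log2 change above 1. The scripts were tested on simulated data. Alternatives covered the pseudocount, the filter, TPM, median centring, quantile normalization, voom on recovered fragments, a replicate block, a fit of the compared groups only and leaving out each library. The members and all gene lists were chosen with earlier results of these data known. Values in every library are given for the 2 members per role with the largest mean absolute change and that with the smallest, for members that rose, and for those called between hairpins. Positions and exon overlaps come from GENCODE v44, promoters from RefSeq. The table has 0 columns of other samples. Replicates differed by more than sampling noise (chi-square per degree of freedom 3.13 to 7.54). Some marker results are not reported here.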

Additional observations from a re-analysis of the deposited data

Results flagged for a closer look

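For 14 members the hairpins differed from each other by more than the fold threshold in the test of the difference itself (limma, shTRIB3-2 minus shTRIB3-1, log2 scale, 3 against 3 libraries). The loading genes differed by −1.44 (ORC1), −1.26 (ORC6), −1.23 (CDC6) and −2.15 (CDT1). In the helicase ring the differences were −1.21 for MCM2, −1.79 for MCM5 and −1.29 for MCM7. Among its partners they were −1.57 for MCM10, −1.16 for GINS2, −1.67 for CDC45 and −1.55 for TICRR. CLSPN differed by −1.30 and CHAF1A by −1.31. CDC7 differed by −1.06 and is unlike the others, since it rose with shTRIB3-1 and fell with shTRIB3-2.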

How the results depend on the processing

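The 39 members called lower with both hairpins numbered 38 to 41 when each library was left out, those called lower 38 to 41 with shTRIB3-1, 42 to 43 with shTRIB3-2 and 14 to 15 between the hairpins, and TRIB3 changed by −0.9992 to −0.9693, −1.71 to −1.68 and −0.73 to −0.70. The call of POLD4 as higher with shTRIB3-2 was lost with a pseudocount of 1 (0 members) and without shCtrl replicate 2 (0 to 1 over the fits). A pseudocount of 1, which compresses changes of low genes, left 32 members called lower with both hairpins, 32 with shTRIB3-1, 39 with shTRIB3-2 and 3 of the 14 between the hairpins. Over the alternatives other than leaving out a library, the count with both hairpins ran from 30 (FPKM of at least 5, with fewer members tested) to 42 (TPM). The replicate numbers did not pair the libraries (deviations correlated at −0.0742 to 0.0933), and with a replicate block the counts were 39, 42 and 14. Signs reversed for small changes that had not passed: RPA2 with shTRIB3-1 under median centring (0.0034) and quantile normalization (0.0018), and under TPM GMNN between the hairpins (0.0238), POLE4 with shTRIB3-1 (−0.0209) and POLE4 between the hairpins (0.0305). Leaving out a library moved GMNN between the hairpins over −0.0285 to 0.0249, and POLE4 over −0.0184 to 0.0958 with shTRIB3-1, −0.0181 to 0.0747 with shTRIB3-2 and −0.0628 to 0.0514 between them. POLD2 lost its fall with shTRIB3-1 under median centring and in 3 of 9 fits without a library. Of the member values over all these alternatives, 3112 kept direction and side of the threshold, 12 gained and 10 lost significance and 13 reversed. Depth limits the lowest levels, down to 25 fragments.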
